A study of Homo sapiens with 5 samples.

Results

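The 9 genes described here encode the MHC class I antigen presentation pathway of the cell: the heavy chains HLA-B, HLA-C and HLA-E, their partner B2M, the peptide transporter chains TAP1 and TAP2, the loading factor TAPBP, the peptide trimmer ERAP1 and the transcriptional activator NLRC5. They were chosen by symbol from the gene tables of 5 libraries of A549, an established human lung adenocarcinoma line, and 9 of 9 symbols were found, each in 1 row, among 58929 genes. The libraries comprised 2 of cells with stable RBMS1 knockdown by a short hairpin (sh1088 and sh1196, 1 library each), 1 of sh control cells, 1 of cells stably overexpressing RBMS1 (named R1A) and 1 of their control, named pCDH. RBMS1 is an RNA-binding protein. All cells were grown in F12K medium with 10% FBS and received cycloheximide (100 ug/mL, 15 min), which stalls ribosomes. The design text calls the libraries ribosome footprint profiles, and the protocol digests lysates with RNase I and takes the single-ribosome fraction, but each library is labelled as total RNA, so that the values measure footprints rests on the design text. Whether a line is 1 clone or a pool is not given in the sources used here. Each library stands for 1 hairpin or 1 construct, and a p-value below measures only how far the libraries at hand spread, which can be technical.

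Class I molecules display peptides from the inside of the cell to CD8+ T cells and natural killer cells. Proteasomes cut the peptides, the TAP1-TAP2 transporter carries them into the endoplasmic reticulum, and the peptide loading complex, in which TAPBP (tapasin) bridges the transporter and the heavy chain, fits them into the groove. A heavy chain reaches the surface stably when paired with B2M. In epithelial and tumour cells the pathway is known for its induction by interferon gamma.

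The libraries held between 10327747 and 13980843 expected counts. Nuclear protein-coding genes took 42.2% and 66.0% of them in the sh1088 and sh1196 libraries, 37.7% in the sh control, 62.3% in the overexpression library and 66.35% in the pCDH control. Levels below are in CPM, counts relative to the library's size after TMM, a factor that balances the make-up of libraries, and intervals are exact 95% counting intervals that cover counting error only. RBMS1 itself stood at 18.2 and 13.5 CPM in the sh1088 and sh1196 libraries, against 30.6 CPM in the sh control. It stood at 37.2 CPM in the overexpression library, against 24.8 CPM in the pCDH control. These CPM values ran in the directions of the labels. With the trend on GC content given below taken out, the overexpression log2 ratio of RBMS1 fell from 0.59 to 0.08. The overexpression label thus has little backing from RBMS1 once that trend is removed. Its knockdown log2 fold change was -0.93, and -0.96 with the GC trend taken out. Of the epithelial and A549 markers, 10 of 10 were detected, with a summed level of 8007 to 14640 CPM per library (14640 in the overexpression library and 8007 in the pCDH control). Of the leukocyte markers, 6 of 10 were at 0 in all 5 libraries, PTPRC among them.

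Promoters of class I genes are known for sites of NF-Y, CREB and ATF, interferon-induced factors and NF-kappa B, and they are shown because several of the genes below stood high in the same library. RefSeq (GRCh38.p14) gave a promoter for 7 of the 9 genes. In the 250 bases before the start of each, both strands were searched for CCAAT (the core of the Y box bound by NF-Y), TGACG (the core of a CRE, as in the X2 box), TTTC followed after any 2 bases by TTTC (an interferon-stimulated response element, ISRE) and GGGG followed after any 2 bases by TCCC (a kappa B site). Overlapping matches of 1 motif were kept, and capitals mark the matched bases. CCAAT was in 5 of the 7 promoters (33% of 27305 promoters of this length), TGACG in 4 (21.7%), the ISRE letters in 4 (3.07%) and the kappa B letters in 2 (2.26%). HLA-B and B2M held the most, 3 of the 4 motifs each, and 0.377% of promoters held at least 3.
HLA-B: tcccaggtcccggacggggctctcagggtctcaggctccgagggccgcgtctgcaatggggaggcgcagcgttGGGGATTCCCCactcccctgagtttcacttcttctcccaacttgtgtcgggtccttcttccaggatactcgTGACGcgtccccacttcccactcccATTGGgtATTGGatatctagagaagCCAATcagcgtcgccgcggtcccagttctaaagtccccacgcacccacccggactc
HLA-C: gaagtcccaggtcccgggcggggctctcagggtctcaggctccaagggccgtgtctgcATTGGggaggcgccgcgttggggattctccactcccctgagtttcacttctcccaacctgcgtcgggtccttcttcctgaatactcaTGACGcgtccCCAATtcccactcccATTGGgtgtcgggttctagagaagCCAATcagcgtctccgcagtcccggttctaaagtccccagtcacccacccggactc
B2M: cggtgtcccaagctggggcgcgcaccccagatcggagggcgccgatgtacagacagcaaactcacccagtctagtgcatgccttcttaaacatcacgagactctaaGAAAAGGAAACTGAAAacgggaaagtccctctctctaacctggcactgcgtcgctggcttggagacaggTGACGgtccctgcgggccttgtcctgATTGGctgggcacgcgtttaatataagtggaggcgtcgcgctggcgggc
TAP1: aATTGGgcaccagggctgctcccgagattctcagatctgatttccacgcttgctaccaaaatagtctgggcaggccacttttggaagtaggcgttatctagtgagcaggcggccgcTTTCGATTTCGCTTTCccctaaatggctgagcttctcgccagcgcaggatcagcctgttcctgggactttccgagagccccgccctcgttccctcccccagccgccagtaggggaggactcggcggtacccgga
These are the bases before the starts of HLA-B (chr6:31357180-31357429, minus strand), HLA-C (chr6:31272093-31272342, minus strand), B2M (chr15:44711267-44711516, plus strand) and TAP1 (chr6:32853705-32853954, minus strand), each written 5′ to 3′ along the gene. HLA-C and TAP1, with 2 motifs each, are shown beside the others as the second heavy chain and the transporter. In HLA-B and HLA-C the TGACG match began 106 and 105 bases before the start, and a CCAAT match (either strand) began 56 bases before it in both. HLA-B had the kappa B match and HLA-C had none. B2M and TAP1 each had 2 overlapping ISRE matches, the 2 heavy chains none. The matches are letters in a window and were not tested as sites. Sites that depart from these exact letters were not searched for, so a promoter with no match may still hold such a site.

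Most members lie in the MHC of chromosome 6, and coordinates here are those of GENCODE 29 (GRCh38), since the authors' build is not given in the sources used here. HLA-B (ENSG00000234745.11) spans chr6:31269491-31357188 on the minus strand, an extent that reaches into HLA-C (ENSG00000204525.16, chr6:31268749-31272130, minus strand). The rest of that group are HLA-E (chr6:30489467-30494205, plus strand), TAP1 (chr6:32845209-32853978, minus strand), TAP2 (chr6:32821833-32838780, minus strand) and TAPBP (chr6:33299694-33314387, minus strand). B2M lies at chr15:44711487-44718877, ERAP1 at chr5:96760810-96808100 and NLRC5 at chr16:56989485-57083531. On the same strand HLA-B also overlaps 4 genes beside HLA-C (WASF5P, LINC02571, AL671883.1 and MIR6891), and TAP2 overlaps AL669918.1. TAP1 overlaps PSMB9 on the other strand, and strand use in counting is not given in the sources used here, so reads in their overlap cannot be told apart. The deposited RSEM posterior SD, which measures how uncertain the sharing of reads between genes is, exceeded 1% of the count for 2 members. It reached 2.84% for HLA-B in the sh control, on 18 counts, and 7.74% for TAP2 in the sh1088 library. Reads from alleles unlike the reference may be missing from the counts of the heavy chains, and the extent was not tested.

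The heavy chains came first in size of difference between libraries. HLA-C, a classical heavy chain that also serves as a ligand of killer cell receptors, stood at 19.0 and 19.2 CPM in the sh1088 and sh1196 libraries, 9.84 CPM in the sh control, 13.1 CPM in the overexpression library and 61.9 CPM in the pCDH control. HLA-E, the nonclassical chain that is read by the NKG2A receptor, stood at 26.4 and 31.6 CPM with the 2 hairpins, 25.8 CPM in the sh control, 26.0 CPM with overexpression and 81.5 CPM in the pCDH control. For both genes 1 library, the pCDH control, was high: its HLA-C level was 3.22 times and its HLA-E level 2.58 times that of the next library, while the other 4 libraries lay within 1.95-fold of each other for HLA-C and within 1.22-fold for HLA-E. HLA-B, the second classical chain, stood at 11.1 and 13.4 CPM with the 2 hairpins, 2.21 CPM (1.31 to 3.50) in the sh control, 6.11 CPM with overexpression and 20.8 CPM in the pCDH control. HLA-B was thus highest in the pCDH control too, but was set apart from the other chains by its low value in the sh control. There HLA-B had 22.5 counts per 100 HLA-C counts, against 58.2 and 69.9 in the sh1088 and sh1196 libraries, and it had 46.8 in the overexpression library, against 33.7 in the pCDH control.

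B2M, the invariant light chain, did not follow the heavy chains. It stood at 349.8 and 247 CPM in the sh1088 and sh1196 libraries, 239.9 CPM in the sh control, 357 CPM in the overexpression library and 229 CPM in the pCDH control. The pCDH control was the lowest of the 5 libraries for B2M, and the highest lay 1.56-fold above it. Since both counts come from the same library, the ratio of heavy chain to B2M counts does not depend on scaling. It is not corrected for the trend on GC content given below. GC content was 40.6% for B2M, 54.8% for HLA-E and 62.7% for HLA-C. With that trend taken out, log2 ratios of overexpression to the pCDH control were 0.09 (B2M), -1.42 (HLA-C), -1.31 (HLA-E) and -1.18 (HLA-B). HLA-B, HLA-C and HLA-E together gave 16.1 counts (14.7 to 17.7) and 26.0 counts (24.0 to 28.1) per 100 B2M counts in the sh1088 and sh1196 libraries, against 15.8 (13.95 to 17.8) in the sh control. They gave 12.7 (11.5 to 13.85) in the overexpression library, against 71.6 (68.25 to 75.2) in the pCDH control.

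**Figure D1:**
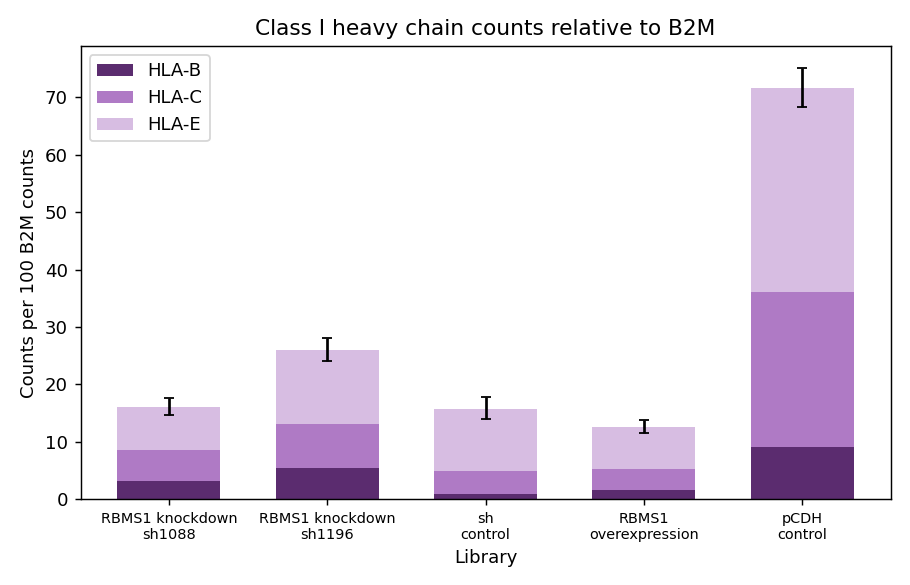
Counts of HLA-B, HLA-C and HLA-E per 100 B2M counts (vertical axis) in each of 5 libraries, stacked by gene, with the 95% counting interval of the sum. The pCDH control reaches 71.6, and the other 4 libraries lie between 12.7 and 26.0. The counts are not corrected for the GC content of the genes.

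The transporter and loading genes lay between these patterns. TAP1 stood at 17.9 and 28.9 CPM in the sh1088 and sh1196 libraries, 14.0 CPM in the sh control, 22.9 CPM in the overexpression library and 39.9 CPM in the pCDH control. TAP2, its partner chain, stood at 20.3 and 29.6 CPM with the 2 hairpins, 16.4 CPM in the sh control, 20.1 CPM with overexpression and 35.7 CPM in the pCDH control. Both transporter chains were highest in the pCDH control, next in sh1196 and lowest in the sh control. TAPBP stood at 83.1 and 111 CPM with the 2 hairpins, 75.4 CPM in the sh control, 97.6 CPM with overexpression and 200.1 CPM in the pCDH control, again with that control highest and the sh control lowest.

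ERAP1, the endoplasmic reticulum aminopeptidase that trims peptides to length, stood at 43.7 and 46.6 CPM with the 2 hairpins, 27.8 CPM in the sh control, 36.0 CPM with overexpression and 33.2 CPM in the pCDH control. It was highest in the knockdown libraries and not in the pCDH control. NLRC5, the activator of class I promoters, was barely measured, with 17 and 26 counts in the sh1088 and sh1196 libraries, 12 counts in the sh control, 37 with overexpression and 34 in the pCDH control. Its levels were 1.48 to 3.14 CPM, and the counting interval of each library overlapped that of every other. In all, 6 of the 8 members with a mean level of at least 5 CPM were highest in the pCDH control, as were 29.2% of all genes at that level, and 7 of 8 were lowest in the sh control, as were 23.1%.

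**Figure D2:**
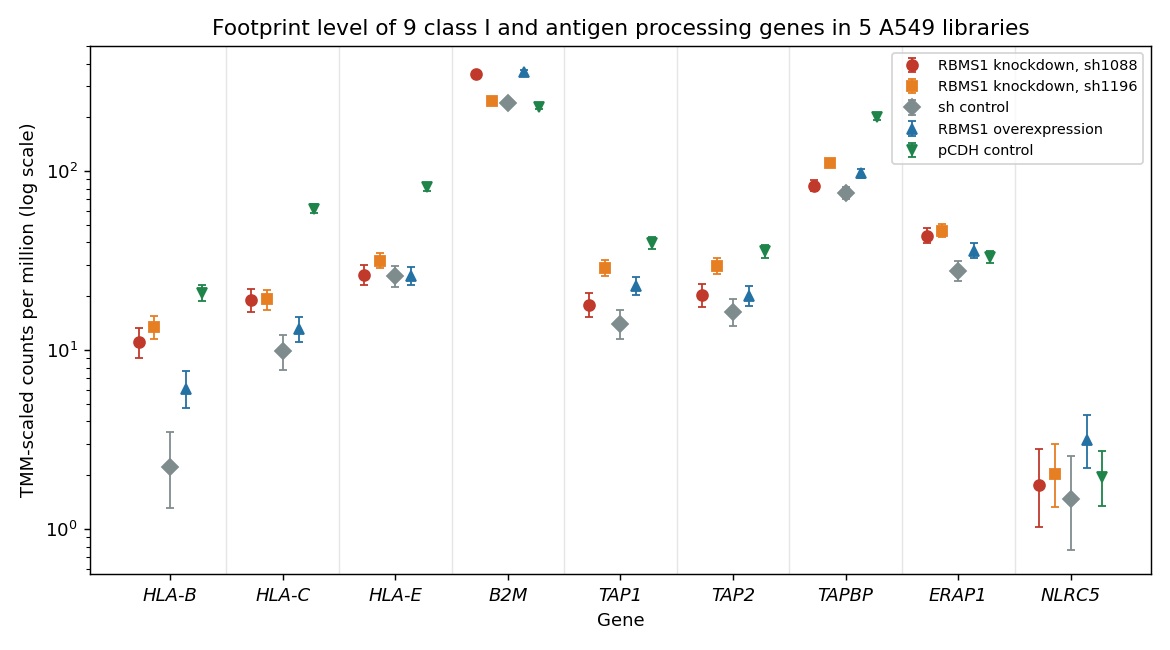
TMM-scaled CPM on a log axis for each of the 9 genes (horizontal axis) in the 5 libraries, with 95% counting intervals. The pCDH control is highest for HLA-B, HLA-C, HLA-E, TAP1, TAP2 and TAPBP, and lowest for B2M at 229 CPM.

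Set against each other per length, by the authors' TPM, B2M ranked first, TAPBP second and NLRC5 last of the 9 in each of the 5 libraries. B2M stood at 219.9 and 279 TPM in the sh1088 and sh1196 libraries, 89.3 TPM in the sh control, 416 TPM with overexpression and 457 TPM in the pCDH control. TAPBP stood at 21.25 and 49.8 TPM with the 2 hairpins, 6.81 TPM in the sh control, 39.3 TPM with overexpression and 130.7 TPM in the pCDH control. HLA-C and HLA-E were close in the pCDH control, at 71.2 and 69.1 TPM, while HLA-E was above HLA-C in the other 4 libraries (12.5 against 7.42 TPM with overexpression). TPM rests on a gene length that RSEM set in each library. That length was 1413 nt and 1535 nt for TAP2 in the sh1088 and sh1196 libraries, against 5643 nt in the sh control, so TPM ratios between libraries serve only as an alternative scaling here.

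The first comparison asked whether RBMS1 knockdown moved the pathway. All 9 members had an edgeR log2 fold change above 0 (54.1% of genes tested) and a higher value in both hairpin libraries than in the sh control, as did 37% of the 14913 genes, and for 6 members the counting intervals of both hairpins lay above 0 (15.3% of genes). The 2 hairpins share 1 control library, in which 8 of the 9 members had their lowest level. None of the 9 passed an adjusted p of 0.05 by edgeR, as none of all genes did (0%). Without adjustment 876 genes had p under 0.05, 1 member among them (HLA-B), and DESeq2 (0.0939% of genes called) and limma-voom called 0 members. The median log2 fold change of the 9 was 0.62, against 0.07 for all genes tested, and it was 0.38 without sh1196 and 0.75 without sh1088. HLA-B had a log2 fold change of 2.475 (SE 0.62, adjusted p = 0.81 by edgeR). Its log2 ratio to the sh control was 2.35 for sh1088 alone and 2.60 for sh1196 alone. HLA-C had a log2 fold change of 0.97 (SE 0.48), with log2 ratios of 0.98 and 0.96 for sh1088 and sh1196, and HLA-E one of 0.18 (SE 0.45), with 0.06 and 0.29. B2M stood at 0.33 (SE 0.55; 0.57 for sh1088 and 0.04 for sh1196), ERAP1 at 0.71 (SE 0.45), TAP1 at 0.75 (SE 0.51), TAP2 at 0.62 (SE 0.48), TAPBP at 0.375 (SE 0.49) and NLRC5 at 0.37 (SE 0.93).

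The authors' deposited table for this comparison gave HLA-B a log2 fold change of 2.48 with an adjusted p of 0.00206, and an adjusted p above 0.05 for the other 8 members. Among genes given an adjusted p there, 1.69% were higher at a value below 0.05. DESeq2 as run here, on the same counts after rounding and filtering, did not call HLA-B, at a log2 fold change of 2.45. Why the 2 results differ was not tested. The HLA-B difference rests on 107 and 172 counts with the 2 hairpins, against 18 in the sh control. Measured against the pCDH library, the knockdown value of HLA-B stood at -0.75, HLA-C at -1.675, HLA-E at -1.47, TAPBP at -1.03 and TAP1 at -0.75. The direction for 7 of the 9 members therefore depended on which control was used, B2M (0.40) and ERAP1 (0.46) being the exceptions.

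The second comparison set RBMS1 overexpression against its pCDH control, 1 library against 1, and has no replicates to check it. Of the 8 members with a mean level of at least 5 CPM, 4 were at least 2-fold lower (14% of 10841 genes) and 0 at least 2-fold higher (14.8%). HLA-C had a log2 ratio of -2.24 (-2.50 to -1.999), HLA-B -1.77 (-2.16 to -1.40), HLA-E -1.645 (-1.83 to -1.47) and TAPBP -1.035 (-1.13 to -0.94). TAP1 stood at -0.80 (-1.01 to -0.60) and TAP2 at -0.83 (-1.05 to -0.61). B2M was higher in the overexpression library at 0.64 (0.58 to 0.70), and ERAP1 stood at 0.11 (-0.07 to 0.30) and NLRC5, under 5 CPM, at 0.68 (-0.03 to 1.40). The median of the 8 was -0.93, against 0.06 for all genes. In the authors' deposited table HLA-C (adjusted p = 2.75e-12), HLA-E (2.27e-07), TAPBP (6.24e-05) and HLA-B (0.00336) were lower, as were 11.7% of genes with an adjusted p, and those values too come from 1 library a group.

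**Figure D3:**
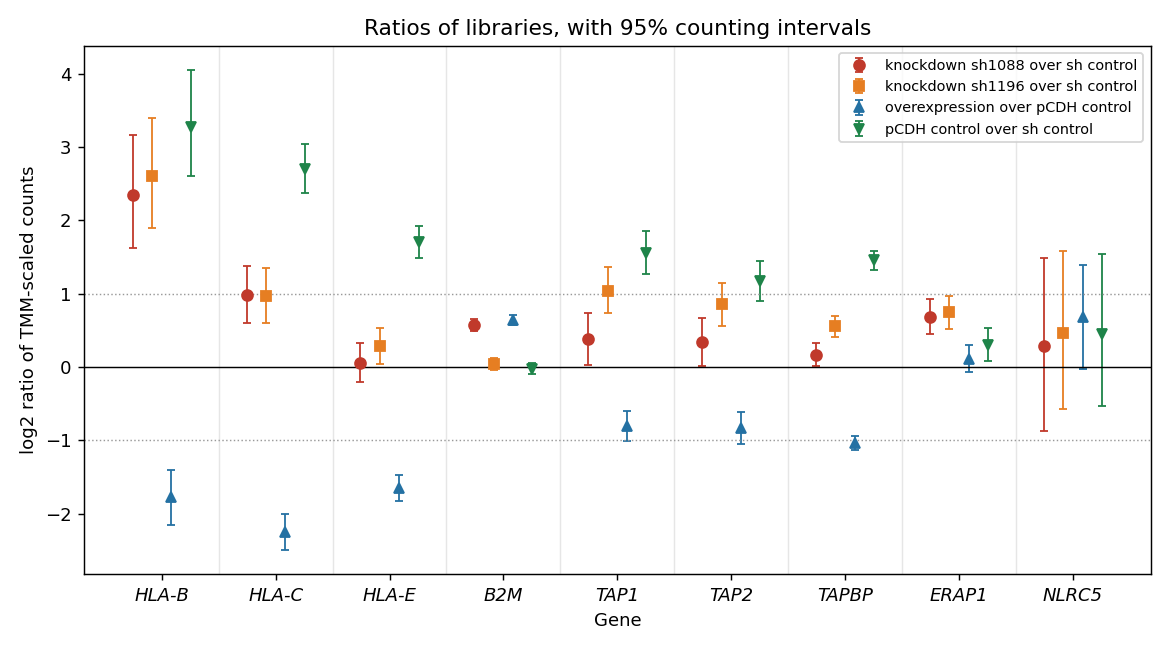
Log2 ratios of TMM-scaled counts (vertical axis) for each gene in 4 pairs of libraries, with 95% counting intervals and dotted lines at 2-fold. Overexpression against pCDH lies below 0 and pCDH against the sh control above 0 for the 6 members of chromosome 6, between -2.24 (HLA-C) and -0.80 (TAP1) in the first pair and between 3.28 (HLA-B) and 1.17 (TAP2) in the second.

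The same members differed between the 2 controls, which carry no change of RBMS1 by their labels. In the pCDH control, against the sh control, 6 of 8 members were at least 2-fold higher (18.8% of 10433 genes) and 0 at least 2-fold lower (17.3%), with a median log2 ratio of 1.503 against 0.05 for all genes. HLA-B stood at 3.28 (2.60 to 4.05), HLA-C at 2.70 (2.37 to 3.04), HLA-E at 1.70 (1.49 to 1.92), TAP1 at 1.55 (1.265 to 1.85), TAPBP at 1.45 (1.33 to 1.58) and TAP2 at 1.17 (0.90 to 1.45). B2M stood at -0.02 (-0.10 to 0.06). This control-to-control difference was larger in size than the overexpression ratio for each of those 6 members, though for HLA-C, HLA-E and TAP2 the intervals of the 2 sizes overlapped, and the 2 comparisons share the pCDH library. Measured against the sh control, overexpression gave 1.46 for HLA-B, 0.41 for HLA-C, 0.01 for HLA-E, 0.37 for TAPBP, 0.71 for TAP1 and 0.30 for TAP2.

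Features of the libraries moved with these differences, and the part of fragment length was not tested. The mean fragment length that the RSEM lengths imply was 40.8 nt in the overexpression library and 52.3 nt in the pCDH control, and 43.4 to 46.3 nt in the other 3 libraries. Across 10321 protein-coding genes GC content and the overexpression ratio ran in opposite directions (Spearman rho = -0.57, genes of the same 2 libraries). The heavy chains, at 54.8% (HLA-E) to 62.7% GC (HLA-C), and TAP1 (57.5%) and TAPBP (57.65%) lie above the median of 49.1% of protein-coding genes, while B2M (40.6%) and ERAP1 (39.7%) lie below it. With the trend on GC taken out HLA-C stood at -1.42, HLA-E at -1.31 and HLA-B at -1.18, 3 members at least 2-fold lower (8.63% of the protein-coding genes), while TAPBP stood at -0.52, TAP1 at -0.29, TAP2 at -0.86, B2M at 0.09 and ERAP1 at -0.48. For the pCDH control against the sh control rho was 0.399 across 9909 genes, and 5 members were at least 2-fold higher with that trend taken out (14% of those genes), HLA-B at 2.685 and HLA-C at 1.915 among them.

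**Figure D4:**
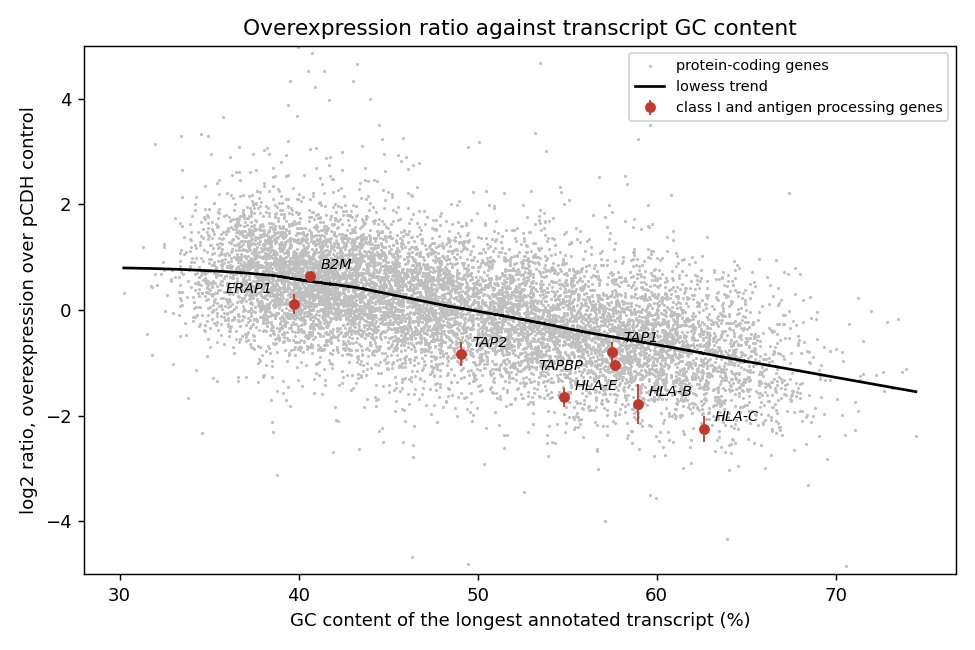
Log2 ratio of overexpression over the pCDH control (vertical axis) against transcript GC content in percent for 10321 protein-coding genes in grey, their lowess trend in black and the 8 members above 5 CPM in red, with 95% counting intervals (6 genes lie beyond the axis limit of 5). HLA-C, HLA-B and HLA-E lie below the trend by 1.42, 1.18 and 1.31, and B2M lies on it (0.09).

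Marker lists of other cell types also differed between the libraries, and their part in the results was not tested. The leukocyte list summed to 36.2 and 71.45 CPM in the sh1088 and sh1196 libraries, 29.9 CPM in the sh control, 40.0 CPM with overexpression and 113 CPM in the pCDH control. Most of it was CD68, a lysosomal protein, at 88.1 CPM in the pCDH control, with 6 of 10 genes at 0 in every library. The fibroblast list summed to 10.55 and 41.9 CPM with the 2 hairpins, 4.30 CPM in the sh control, 9.42 CPM with overexpression and 29.3 CPM in the pCDH control, led by THY1, with DCN at 0 in all. The endothelial list, with VWF and KDR at 0, summed to 0.827 and 0.156 CPM with the 2 hairpins, 0.861 CPM in the sh control, 1.19 CPM with overexpression and 0.4605 CPM in the pCDH control. Of the 12 genes of MHC class II, the presentation system of professional immune cells, 2 were tested, HLA-DMA and HLA-DMB, and HLA-DPB1, HLA-DQA1 and HLA-DOB were at 0 in every library. CIITA, the class II activator, was at 0 in 4 libraries and at 0.509 CPM in the overexpression library. In these bulk libraries fewer cells of a type and less RNA per cell cannot be told apart.

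The third comparison asked whether the members followed the RBMS1 level across all 5 libraries, coded -1 in knockdown, 0 in the controls and 1 in overexpression, the vector being a second term. By edgeR 0 of 9 passed an adjusted p of 0.05 (0.00632% of 15827 genes did), and without adjustment 1046 genes had p under 0.05, 2 members among them (HLA-B and HLA-C). HLA-B had an estimate of -2.12 (log2) per level (SE 0.47, edgeR adjusted p = 0.634), HLA-C of -1.495 (SE 0.44, adjusted p = 0.693), HLA-E of -0.77 (SE 0.43), TAP1 of -0.76 (SE 0.40) and TAPBP of -0.64 (SE 0.40). The estimates were below 0 for 7 of 9 members, with a median of -0.69 against 0.02 for all genes, and B2M (0.11, SE 0.45) and NLRC5 (0.13, SE 0.78) were above it. DESeq2 called HLA-B (adjusted p = 0.0306; 0.419% of the genes it gave an adjusted p were called) and limma-voom called 0 members. Because of the vector term, the fit without the pCDH control rests on the knockdown comparison alone, with its sign turned. HLA-C then stood at -0.97, HLA-E at -0.18 and TAPBP at -0.375. Without the sh control the fit rests on the overexpression comparison alone, and they stood at -2.25, -1.65 and -1.04. These values therefore repeat the comparisons above and are no separate check.

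Other genes act with the members in the endoplasmic reticulum, among them the chaperones, glucosidases and disulfide isomerases that fold heavy chains. Of 15 such ER partners tested in knockdown, 0 passed edgeR (3 at an unadjusted p under 0.05, as were 876 of 14913 genes). In overexpression 4 of 14 were at least 2-fold lower (14% of 10841 genes) and 0 higher (14.8%), with a median of -0.415. CALR, the calreticulin of the loading complex, stood at -2.37 (-2.41 to -2.32), MOGS, glucosidase I, at -2.03, PRKCSH, the beta subunit of glucosidase II, at -1.88 and PDIA3, the disulfide isomerase bound to tapasin, at -1.12. In knockdown the same 4 stood at 1.502 (CALR, SE 0.62), 1.06 (MOGS, SE 0.61), 1.24 (PRKCSH, SE 0.62) and 1.20 (PDIA3, SE 0.50), none of which passed (adjusted p = 0.828 by edgeR for each). They were also higher in the pCDH control than in the sh control, by 2.80 (CALR), 2.25 (MOGS), 2.94 (PRKCSH) and 1.70 (PDIA3). Measured against the pCDH library, knockdown gave -1.245 (CALR), -1.145 (MOGS), -1.65 (PRKCSH) and -0.45 (PDIA3). These 4 were picked for the size of their ratios in both arms. HSPA5 had the largest knockdown value of the list, 1.97 (SE 0.79). It stood at 2.47 in knockdown against the pCDH library and at -0.36 (-0.40 to -0.32) in overexpression.

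The class I-like genes included other chains built on the same fold. In knockdown 0 of 11 tested passed edgeR (1 at an unadjusted p under 0.05, as were 876 of 14913 genes). In overexpression 3 of 8 were at least 2-fold lower (14% of 10841 genes) and 0 higher (14.8%), with a median of -0.78. HLA-F, another class I heavy chain, was the gene under 0.05 in knockdown, at 1.77 (SE 0.66) on 19 counts in the sh control. It stood at -0.40 (-0.88 to 0.06) in overexpression, and at 0.28 in knockdown against the pCDH library. FCGRT, the heavy chain of the neonatal Fc receptor, which also pairs with B2M, stood at -2.22 (-2.46 to -1.98) in overexpression and 1.06 (SE 0.49) in knockdown. PROCR, the protein C receptor, stood at -1.16 and 0.64, MICA, a stress ligand of the NKG2D receptor, at -0.93 and 0.99, and ULBP1, another such ligand, at -0.62 and -0.57, in overexpression and knockdown in that order. The pCDH control differed from the sh control by 2.31 (FCGRT), 1.49 (PROCR), 2.10 (MICA) and -0.88 (ULBP1). Measured against the pCDH library, knockdown gave -1.20 (FCGRT), -0.79 (PROCR), -1.065 (MICA) and 0.36 (ULBP1). With the GC trend taken out, the overexpression ratio was -1.40 (FCGRT), -0.98 (PROCR), -0.58 (MICA) and -1.08 (ULBP1).

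Proteasomes supply the peptides. Of the 7 immunoproteasome and activator genes, 0 passed in knockdown by edgeR (0 at an unadjusted p under 0.05). In overexpression 3 were at least 2-fold higher (14.8% of 10841 genes) and 0 lower (14%), with a median of 0.70. PSMB8 and PSMB9, the interferon-inducible catalytic subunits encoded beside TAP1 and TAP2, stood at 1.68 (1.40 to 1.97) and 1.34 (0.84 to 1.855) in overexpression, where TAP1 stood at -0.80. In the pCDH control, against the sh control, PSMB8 stood at -1.84 and PSMB9 at -1.36. The level of PSMB8 was 28.1 CPM with overexpression and 32.2 CPM in the sh control, and that of PSMB9 was 7.89 CPM with overexpression and 8.24 CPM in the sh control. PSMB9 overlaps TAP1, as stated above. In knockdown PSMB8 stood at -0.66 (SE 0.43) and PSMB9 at 0.64 (SE 0.52). PSME2, an activator subunit, stood at 0.37 in overexpression and 0.38 in knockdown, and PSME3 at -0.44 and -0.53. PSMB10, the other inducible subunit, stood at -0.12 (-0.38 to 0.14) in overexpression. The 3 constitutive subunits that PSMB8, PSMB9 and PSMB10 replace stood at 0.56 (PSMB6), 0.33 (PSMB5) and 0.30 (PSMB7) in overexpression, with 0 of 3 passing in knockdown.

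Among regulators of class I transcription 0 of 23 passed in knockdown by edgeR (0 at an unadjusted p under 0.05). In overexpression 4 of 22 were at least 2-fold higher (14.8% of 10841 genes) and 1 lower (14%), with a median of 0.02. IFNGR1, the ligand-binding chain of the interferon gamma receptor, stood at 1.13 (1.03 to 1.24) in overexpression and 1.05 (SE 0.49) in knockdown. IRF1, the interferon-induced factor that binds the response element, stood at 1.02 and 0.74, IRF9 at 0.66 and 0.585 and ATF1 at 0.38 and -0.48, in overexpression and knockdown in that order. Other peptidases, most of them cytosolic, cut peptides before or instead of transport. Of 8 listed, 3 were at least 2-fold higher (14.8% of 10841 genes) and 1 lower (14%) in overexpression. IDE stood at 1.59, BLMH at 0.72, LNPEP at 0.50 and THOP1 at -1.12, and 0 of 8 passed in knockdown by edgeR (0 at an unadjusted p under 0.05). HLA-DMB and HLA-DMA, the class II peptide exchangers, stood at -1.06 and -0.71 in overexpression and -0.34 and 0.20 in knockdown.

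The other genes of the MHC region were compared as a description. Of 81 protein-coding genes there with a mean level of at least 5 CPM, from GABBR1 (chr6:29555629-29633976) to ZBTB9 (chr6:33453970-33457548) and without the members, 27.2% were at least 2-fold lower in overexpression, against 13.6% of 10330 protein-coding genes genome-wide. Their median log2 ratio was -0.57, against 0.06 genome-wide, at a median GC content of 55.9%, and it was -0.19 with the GC trend taken out. The transcripts of the members differed in ATATA, a motif of the AU-rich kind that RBMS1 is known to bind. It occurred 2.91 times per 1000 bases in the longest B2M transcript, 1.58 times in TAP2 and 1.46 times in ERAP1, and 0.646 times or less in the other 6, where the median of protein-coding genes was 0.52.

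The genes with the most similar course over the 5 libraries were sought by the root mean square difference of centred log2 CPM among 8569 genes. The nearest to HLA-C were PCSK1N (0.118), TP53I13 (0.136) and AC020916.1 (0.145), with HLA-E 114th (0.36) and HLA-B 695th (0.559). The nearest to TAP1 were RSRP1 (0.0423), PRR11 (0.0733) and RRP1 (0.0792), with TAP2 128th (0.168) and TAPBP 140th (0.17). The nearest to B2M were METAP2 (0.0593), SLC35D1 (0.0594) and SMC5 (0.0646), with ERAP1 1162nd (0.308) and HLA-C 8229th (1.04). With 5 libraries many genes share a course, so these are descriptions of these libraries.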

How the data were processed

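Libraries of A549 cells in 4 groups were analysed: RBMS1 knockdown (2 libraries), sh control (1), RBMS1 overexpression (1) and pCDH control (1). The expected counts per gene are the authors' RSEM estimates, per the file headers, with TPM and FPKM deposited beside them, both scaled to effective length (FPKM was not used here). Bowtie, DESeq2, RSEM 1.3.1 and STAR 2.4.2 stand in the submitters' processing notes, which give no order. The authors' deposited comparison tables hold p-values beside a log2 fold change, and their count columns equal the sample values (maximum difference 0).

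Expected counts were rounded. Knockdown was tested with edgeR 4.0.16 (quasi-likelihood, robust, TMM, filterByExpr, Benjamini-Hochberg adjustment over all genes tested) in R 4.3.3, with 1 residual degree of freedom, the lone control being assumed to vary like the knockdown libraries. The RBMS1 level fit over 5 libraries had 2. Pairs of single libraries were given as log2 ratios of TMM-scaled counts with exact conditional 95% intervals. Alternatives were DESeq2 1.42.0, limma-voom (limma 3.58.1), other scalings, no filter, TPM with a pseudocount of 1, the other control, and a lowess trend on GC (span 0.3) taken out. Gene identifiers were matched to GENCODE 29 without version (58656 of 58929). The tests were also run on simulated counts that had the same spread for every gene and no GC trend. That run does not show how the tests behave on these libraries. Named list genes were those past the threshold in knockdown, then those ranked by the smaller of their absolute log2 ratios in the knockdown and overexpression arms, at a mean of at least 5 CPM. HLA-F and HSPA5 were added after these results were seen. The likest genes in course were the 3 nearest to HLA-C, B2M and TAP1 at a mean of at least 10 CPM. Promoters were shown for the members with the most motifs, with HLA-C and TAP1 added after these results were seen. The members and lists were chosen with earlier results of these data known.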

Additional observations from a re-analysis of the deposited data

How the results depend on the processing

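Of 252 alternative values of single members, 29 had the other sign. Measured against the pCDH library, knockdown gave -0.75 for HLA-B, -1.675 for HLA-C, -1.47 for HLA-E, -0.75 for TAP1, -0.50 for TAP2, -1.03 for TAPBP and -0.027 for NLRC5, a member median of -0.75 and 93 genes called. Measured against the sh control, overexpression gave 1.46 for HLA-B, 0.41 for HLA-C, 0.012 for HLA-E, 0.37 for TAPBP, 0.71 for TAP1 and 0.30 for TAP2, a member median of 0.39, with 0 members at least 2-fold lower and 1 at least 2-fold higher. The overexpression ratio turned for ERAP1 with library size scaling (-0.03), by TPM (-0.82) and with the GC trend taken out (-0.48), and by TPM for B2M (-0.13) and NLRC5 (-0.56). Between the controls B2M turned with library size scaling (0.76), by TPM (2.34) and with the GC trend taken out (0.27), as did NLRC5 with the GC trend taken out (-0.10). In the level fit B2M (-0.24) and NLRC5 (-0.25) turned with library size scaling. Without either control or the overexpression library, the level fit rests on the knockdown or the overexpression comparison alone. Leaving out 1 library each, B2M ran from -0.34 to 0.63, NLRC5 from -0.38 to 0.67, ERAP1 from -0.72 to 0.11, HLA-C from -2.25 to -0.97, HLA-E from -1.65 to -0.18 and TAPBP from -1.04 to -0.375, and genes called ran from 0 (without the pCDH control) to 136 (without sh1088). Genes called in knockdown were 27 with library size scaling, 102 without a filter and 14 by DESeq2, against 0. In the level fit they were 36, 89 and 56 in the same order, against 1, with 1 member called, HLA-B, both without a filter and by DESeq2. The knockdown median of members was 1.22 with library size scaling (all genes 0.62) and 1.70 by TPM (all genes 0.835). The overexpression median was -1.40 by TPM (all genes -0.71) and -0.69 with the GC trend taken out. The median between the controls was 2.29 with library size scaling (all genes 0.83), 3.47 by TPM (all genes 1.93) and 1.04 with the GC trend taken out. The cause of these changes was not tested. No paired analysis was possible because the labels give no shared replicate numbers beyond 1 library a group. Depth limits NLRC5 (at most 37 counts) and HLA-B in the sh control (18 counts).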
